A study of Mus musculus with 39 samples.

Results

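Macrophages that arise from recruited monocytes in the injured lung were compared with monocytes sorted from uninjured lung, in young C57BL/6J mice. The comparison used 10 of the 39 libraries of the series, picked by their group labels and not by measured values: 5 of Siglec F-low alveolar macrophages from bleomycin-treated mice and 5 of lung monocytes from naive mice. Both groups are labelled saline, the vehicle of the drug ISRIB given to other groups. The age label of both is 8 to 12 weeks, whereas the series text gives 3 to 5 months. The series text places collection 21 days after bleomycin for all cells, while the sample labels mark every monocyte library as naive. The same pair of groups exists in old mice (age label over 18 months, series text 18 to 24 months) and is used here to ask which differences recur. Neither the gate used for monocytes nor the number of mice behind a library is stated, so p-values measure the spread between these libraries. Every macrophage library comes from a bleomycin-treated lung and every monocyte library from a naive one, so cell type and injury cannot be told apart.

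Monocytes are short-lived white cells made in the bone marrow. The classical kind, marked by Ly6C and CCR2, enters inflamed tissue, and the nonclassical kind, which depends on the nuclear receptor NR4A1, patrols the vessel wall. Bleomycin damages the alveolar epithelium and is followed by fibrosis, and during this time recruited monocytes become alveolar macrophages with little of the lectin Siglec F, which resident alveolar macrophages carry in quantity. Such cells are known for osteopontin, lipid handling, matrix-degrading enzymes and growth factors that act on fibroblasts.

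The macrophage libraries held 6069978 to 16056708 counts and the monocyte libraries 4595331 to 10195234. The share of counts from mitochondrial genes was 1.504% to 1.82% in macrophages and 0.889% to 1.24% in monocytes. Macrophage libraries resembled each other closely, with a median SD of 0.24 (log2 CPM, where CPM are counts per 1000000 of the library total) over all genes tested, against 0.36 for the monocytes. Monocyte library 4 stood apart: it had the lowest total (4595331), detected 12324 genes where the other monocyte libraries detected 15196 to 15773, and correlated with them at 0.919 to 0.929 (Pearson, log2 CPM) where they correlated with each other at 0.961 to 0.977. Without it the monocyte median SD was 0.26. The first principal component of the 10 libraries held 69.3% of the variance and separated macrophages (scores 95.2 to 100.4) from monocytes (-119.8 to -89.3). The second, with 10.6%, set monocyte library 4 (-105.4) against the other monocytes (25.1 to 33.035).

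Of 13587 genes tested with edgeR, 4211 were higher and 3935 lower in macrophages at an adjusted p under 0.05 (60% of genes called, 31% higher and 29% lower). Against a threshold of a 2-fold change, tested as such, 1688 genes were higher and 1361 lower (22.4% called, 12.4% higher and 10% lower). For 5407 genes (39.8%) every macrophage library lay on one side of every monocyte library. With so broad a difference, the share of a gene list that was called has to be read against these percentages. Without monocyte library 4 the counts were 4189 higher and 3945 lower, and 1672 and 1343 past 2-fold. Genes are named by a fixed rule of size given with the methods, and members of a list named beyond it for what they are known to do were picked after their values were seen. In what follows, values listed for libraries 1 to 5 are CPM, and means carry the SD over the 5 libraries. Changes are log2 fold changes of macrophage over monocyte, with adjusted p, from edgeR. Their standard errors were derived from that output, as the absolute change divided by the square root of the F statistic. CPM are not scaled for transcript length, so they compare libraries and not genes. In bulk libraries, fewer cells of a kind and less RNA per cell cannot be told apart.

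**Figure D1:**
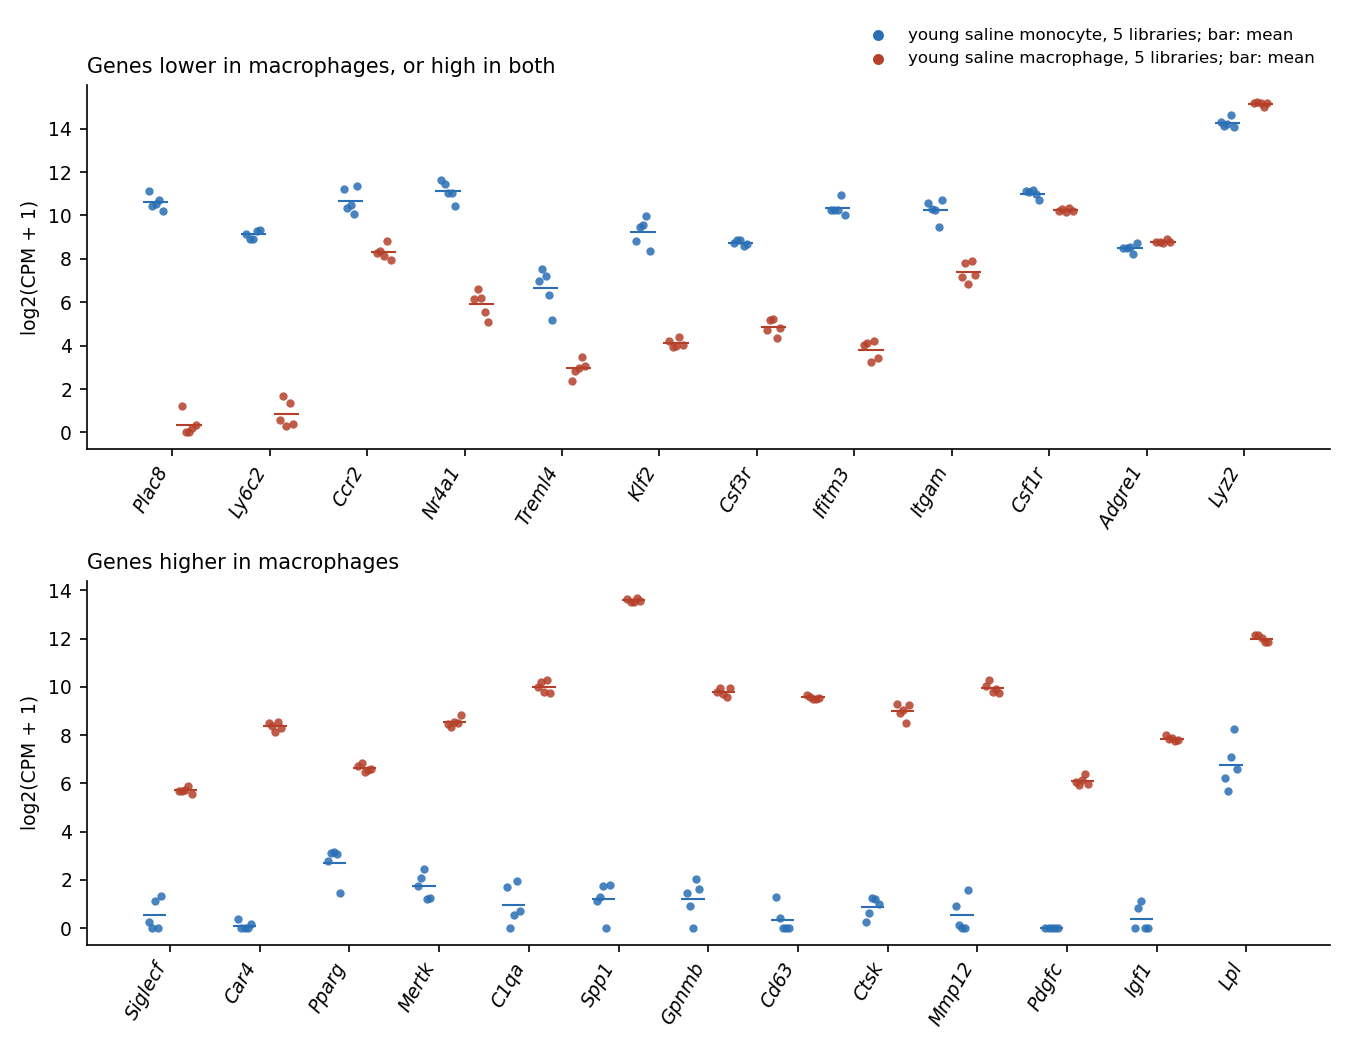
Level of single genes, as log2(CPM + 1), in the 5 macrophage and 5 monocyte libraries (each point is 1 library, bars are means of the log values); the upper panel holds genes lower in macrophages or high in both, the lower panel genes higher in macrophages. Spp1, Mertk and Mmp12 are under 5 CPM in every monocyte library, and Ly6c2 and Plac8 under 5 CPM in every macrophage library.

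Markers of the labelled cell types came first. Mertk, the receptor that takes up dying cells and marks tissue macrophages, was at 349.9, 326, 376, 359 and 450.0 CPM in macrophage libraries 1 to 5 and 2.35, 3.22, 4.40, 1.31 and 1.37 CPM in monocyte libraries 1 to 5. The ranges were far apart, and Mertk rose by 7.16 ± 0.30 (adjusted p = 3.83e-22). Siglecf, the lectin behind the sort, was at 49.8, 50.03, 51.6, 58.8 and 46.8 CPM in macrophage libraries 1 to 5 and 0.196, 0, 1.16, 0 and 1.50 CPM in monocyte libraries 1 to 5, a rise of 6.43 ± 0.40. The integrin Itgax (CD11c) rose by 5.91 ± 0.41 from 30.6 ± 21.5 to 1792 ± 83.1 CPM and the mannose receptor Mrc1 by 5.41 ± 0.30 from 31.8 ± 12.6 to 1311 ± 115 CPM. Ly6c2, which encodes the Ly6C of classical monocytes, was at 0.494, 2.20, 0.239, 1.60 and 0.311 CPM in macrophage libraries 1 to 5 and 569, 488, 483, 618 and 649 CPM in monocyte libraries 1 to 5. Its fall of 9.27 ± 0.41 (adjusted p = 1.71e-21) left at most 2.20 CPM in any macrophage library. Itgam (CD11b) fell by 2.85 ± 0.23 and Cd14 by 1.68 ± 0.33, Cx3cr1, the fractalkine receptor, by 1.62 ± 0.23, and the pan-leukocyte phosphatase Ptprc (CD45) by 1.47 ± 0.10. Genes shared by monocytes and macrophages differed less: Adgre1 (F4/80) was 444 ± 24.01 against 364 ± 42.2 CPM (macrophages against monocytes), a rise of 0.32 ± 0.12 that was 0.25 with adjusted p = 0.064 without monocyte library 4. Fcgr1 (CD64) was 156 ± 13.4 against 133 ± 9.27 CPM (0.26 ± 0.21, adjusted p = 0.277) and did not pass the test. Csf1r, the receptor for the growth factor on which both cells depend, fell by 0.74 ± 0.10, and Cd68 rose by 1.59 ± 0.09. Of the 14 identity markers measured, 6 rose, 7 fell and 1 was not called, and 13 had libraries that did not overlap. Mertk, Itgax, Mrc1 and Siglecf were thus high in the libraries labelled macrophage, and Ly6c2 in those labelled monocyte.

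Among genes that averaged 50 CPM or more in macrophages, with libraries that did not overlap, those with the largest rises included several with no reads in monocytes. Cspg4 (NG2, a membrane proteoglycan known from pericytes; ENSMUSG00000032911, chromosome 9, 56865033 to 56899870, plus strand) was at 253, 209.6, 216, 191 and 218 CPM in macrophage libraries 1 to 5 and had no count in any monocyte library. Taking 3 counts over the 5 monocyte libraries as the floor, it was at least 2923-fold higher. Pdgfc, a growth factor for fibroblasts, was at 65.7, 60.1, 69.8, 83.6 and 62.7 CPM and also had no monocyte count, which makes it at least 906-fold higher. The serotonin transporter Slc6a4 was at 57.8, 63.1, 75.3, 43.2 and 77.0 CPM (at least 898-fold higher), and H2-M2, a nonclassical histocompatibility gene, at 47.4, 55.3, 56.9, 41.9 and 56.8 CPM (at least 715-fold). These 4 were thus detected in all 5 macrophage libraries and in no monocyte library.

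Spp1, which encodes osteopontin, a secreted matrix and cytokine-like protein (ENSMUSG00000029304, chromosome 5, 104435118 to 104441050, plus strand), was at 12572, 11641, 11756, 13231 and 12094 CPM in macrophage libraries 1 to 5 and 1.18, 1.44, 2.32, 0 and 2.50 CPM in monocyte libraries 1 to 5. It rose by 12.93 ± 0.47 (adjusted p = 4.29e-24) and was among the 10 transcripts with the highest CPM in macrophages. Bhlhe41, a repressor linked to alveolar macrophage identity, was at 178, 201, 183, 128 and 168 CPM in macrophages and had 1 count over all monocyte libraries, a ratio of 6940 (95% interval 1245 to 274100), for counting error only. The others among the 12 largest rises were the carbonic anhydrase Car4 (11.54 ± 0.74), the adaptor Bcar3 (11.31 ± 0.51), the proton pump subunit Atp6v0d2 (10.99 ± 0.54), Pmepa1, a target and inhibitor of TGF-beta signalling (10.77 ± 0.47), the tetraspanin Cd63 (10.73 ± 0.42) and the amino acid transporter Slc36a2 (10.69 ± 0.60). All 12 had monocyte levels of at most 2.50 CPM in every library.

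Among genes that averaged 50 CPM or more in monocytes, with libraries that did not overlap, the largest falls were led by Plac8 (ENSMUSG00000029322, chromosome 5, 100553725 to 100572245, minus strand), a monocyte gene of uncertain function, at 1.32, 0, 0, 0.145 and 0.249 CPM in macrophage libraries 1 to 5 and 2207, 1403, 1480.4, 1674 and 1178 CPM in monocyte libraries 1 to 5. It fell by 12.32 ± 0.59 (adjusted p = 1.96e-20). Ifitm6 fell by 10.43 ± 0.39 and the transporter Abca6 by 8.38 ± 0.48. Mefv (pyrin, an inflammasome sensor) was at 0, 0.776, 0.358, 1.31 and 0.623 CPM in macrophage libraries 1 to 5 and 169, 196, 183, 173 and 193 CPM in monocyte libraries 1 to 5, a fall of 8.13 ± 0.40. Cd177, best known from neutrophils, was at 0.329, 2.20, 1.43, 0.871 and 1.93 CPM in macrophage libraries 1 to 5 and 409.6, 363, 394, 418 and 398 CPM in monocyte libraries 1 to 5, and Padi4, the enzyme that citrullinates histones, fell by 7.72 ± 0.39. Among the others of the 12 were Rnf144a (-7.83), coagulation factor F5 (-7.24), the cytokine receptor Flt3 (-6.99) and Ms4a4c (-6.92), with Ly6c2 as above. None of the 12 exceeded 5.52 CPM in any macrophage library.

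CPM favours long transcripts, and by this measure the 10 highest genes held 12.8% to 13.4% of macrophage counts and 6.95% to 8.92% of monocyte counts. Lyz2, which encodes lysozyme, had the highest CPM in both groups, at 37282, 38526, 36705, 33171 and 36678 CPM in macrophage libraries 1 to 5 and 20396, 17698, 19105, 25789 and 17113 CPM in monocyte libraries 1 to 5, a rise of 0.91 ± 0.13. Spp1, cathepsin D (Ctsd, 12494 ± 376 against 409 ± 157 CPM), cathepsin S (Ctss, 9413 ± 505 against 2008 ± 167 CPM), apolipoprotein E (Apoe, 8892 ± 1348 against 1430.1 ± 775 CPM) and ferritin heavy chain (Fth1, 7504 ± 473 against 1371 ± 316 CPM) were in the macrophage 10 only. Ahnak (1269.9 ± 50.5 against 4595 ± 718 CPM), the immediate early gene Fos (893 ± 132 against 4566 ± 1036 CPM), thrombospondin (Thbs1, 90.8 ± 61.2 against 4549.6 ± 3116 CPM) and the elongation factor Eef1a1 (2586 ± 162 against 3941 ± 314 CPM) were in the monocyte 10 only and fell by 1.82 ± 0.10, 2.30 ± 0.27, 5.64 ± 0.66 and 0.57 ± 0.08. Psap, which encodes the activators of sphingolipid breakdown, and Actb (beta-actin) were in both, with rises of 0.50 ± 0.11 and 0.40 ± 0.09 that were not called with offsets for GC content and length. Fn1 (fibronectin) was also in both, at 13576, 11845, 13384, 18638 and 13624 CPM in macrophage libraries 1 to 5 and 12360, 7409, 6188, 4345 and 12276 CPM in monocyte libraries 1 to 5. Its libraries overlapped, and it rose by 0.76 ± 0.19 (adjusted p = 8.16e-04). In old mice Fn1 overlapped almost fully, at 6884.5 to 10612 CPM in macrophages and 7017.9 to 10143 CPM in monocytes. Mpeg1, which makes a pore-forming protein, was at 4213 ± 208 against 3990.4 ± 608 CPM (0.11 ± 0.10, adjusted p = 0.361), and Gm42418, which overlaps ribosomal RNA genes and is uncertain for that reason, at 6436 ± 1981 against 6898 ± 3435 CPM (-0.09 ± 0.27, adjusted p = 0.797). Neither passed the test.

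Genes of the classical monocyte fell almost as a whole: of 23 tested, 20 fell and 2 rose (19 lower past 2-fold, median log2 change -5.20 beside 0.01 over all genes). F13a1, a transglutaminase of clotting, fell by 5.33 ± 0.26 (51.2 ± 10.3 against 2107 ± 660.1 CPM), Hp (haptoglobin) by 3.05 ± 0.47 (82.2 ± 12.5 against 700.4 ± 218 CPM) and the interferon-induced Ifitm3 by 6.60 ± 0.24 (13.5 ± 4.08 against 1329 ± 366 CPM). The risers were Lyz2 and S100a8. S100a8, which pairs with S100a9 to form calprotectin, was at 26.4, 21.6, 21.98, 24.96 and 19.9 CPM in macrophage libraries 1 to 5 and 5.20, 1.88, 5.56, 3.70 and 12.6 CPM in monocyte libraries 1 to 5. Every macrophage library was above every monocyte library. S100a9 did the opposite, with 0 to 0.239 CPM in macrophages and 2.12 to 5.79 CPM in monocytes, a fall of 5.29 ± 1.31.

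Nonclassical monocyte genes fell as well, 17 of 23, with 2 higher and 4 not called (median -2.34). Nr4a1, the nuclear receptor this subset needs, was at 69.2, 95.8, 72.4, 46.2 and 33.6 CPM in macrophage libraries 1 to 5 and 3138, 2839, 2100.1, 2066 and 1369.9 CPM in monocyte libraries 1 to 5. Every monocyte library was above every macrophage library, and the fall was 5.16 ± 0.39 (adjusted p = 1.69e-14). Pglyrp1, a peptidoglycan-binding protein, fell by 6.14 ± 0.54, Treml4 by 4.0 ± 0.37, the adhesion receptor Adgre4 by 3.98 ± 0.40 and the transcription factor Pou2f2 by 2.88 ± 0.22. Tcf7l2, a partner of beta-catenin, and Bcl2a1d, an inhibitor of cell death, went the other way: Tcf7l2 was at 169, 151, 179, 161 and 175 CPM in macrophage libraries 1 to 5 and 12.9, 20.3, 17.02, 8.27 and 4.37 CPM in monocyte libraries 1 to 5, and Bcl2a1d rose by 3.23 ± 0.36.

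Receptors and adhesion molecules for trafficking split: of 25, 13 fell and 9 rose. S1pr5, the sphingosine phosphate receptor that lets nonclassical monocytes leave the marrow, had no count in any macrophage library and 32.9, 57.5, 70.6, 31.6 and 13.5 CPM in the monocytes, at least 638-fold lower. The integrin chain Itgb7 fell by 6.75 ± 0.30 (6.17 ± 2.63 against 670.2 ± 127 CPM), Itga4, which pairs with it, by 2.34 ± 0.17, and Icam2 by 3.34 ± 0.34. Ccr2, the receptor for the monocyte attractant CCL2, was at 306, 333, 283, 453 and 246 CPM in macrophage libraries 1 to 5 and 2351, 1288, 1417, 1057 and 2629 CPM in monocyte libraries 1 to 5. It fell by 2.40 ± 0.29 (adjusted p = 3.40e-09), yet each macrophage library kept at least 246 CPM. Receptors for complement fragments and formyl peptides rose: C3ar1 by 5.63 ± 0.31 (223 ± 34.02 against 4.40 ± 1.62 CPM), Fpr1 by 5.0 ± 0.34 and C5ar1 by 2.31 ± 0.28.

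The 5 monocyte libraries differed among themselves in the balance of these genes. Vcan (versican), a classical gene, was at 728, 448, 183, 138 and 2008 CPM in monocyte libraries 1 to 5, and Thbs1 at 8175, 5210.4, 1225, 1448 and 6689 CPM. Both were highest in libraries 1 and 5. Treml4, a nonclassical gene, was at 126, 183, 145, 80.5 and 35.7 CPM, lowest in library 5. Cd209a, a lectin of monocyte-derived dendritic cells, was at 6.77, 55.2, 71.1, 71.6 and 9.12 CPM and Flt3 at 16.7, 59.1, 46.3, 107 and 37.6 CPM. For both, libraries 2, 3 and 4 held the 3 highest values. The class II invariant chain Cd74 was likewise highest in these 3, at 706, 1356, 1848, 2644 and 322 CPM. Macrophage libraries showed no such spread for Cd74, at 5980.3, 5865, 5575, 4267 and 5779 CPM. The mix of subsets behind these differences was not tested, and each fold change above rests on all 5 monocyte libraries.

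**Figure D2:**
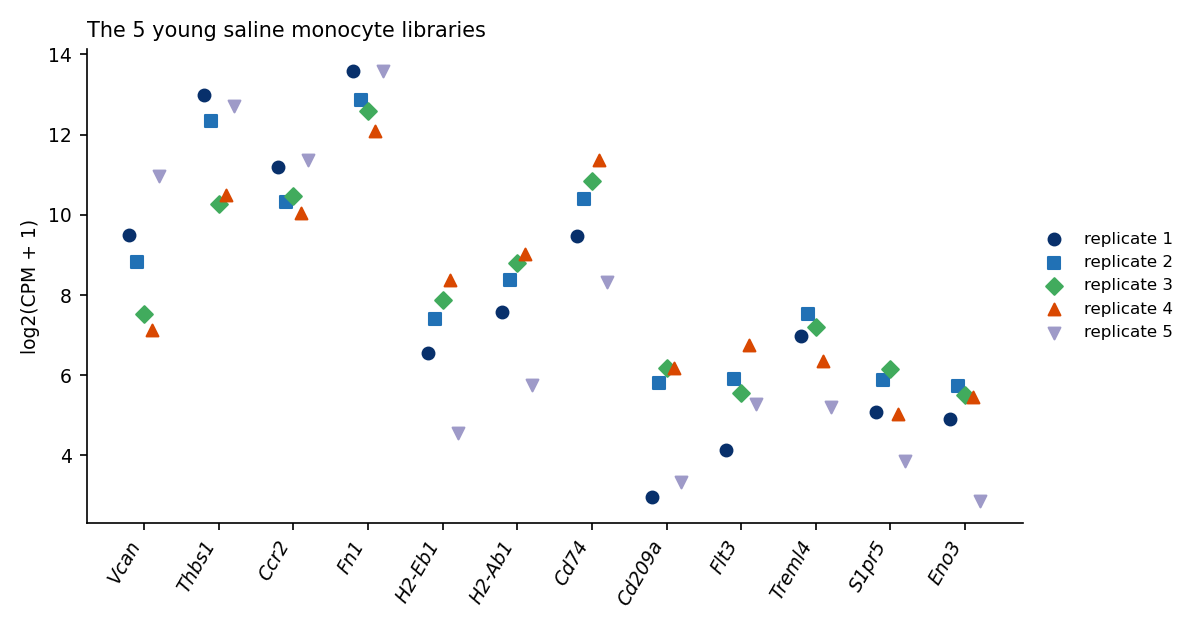
Level of single genes, as log2(CPM + 1), in each of the 5 monocyte libraries, with 1 symbol for each library. Vcan, Thbs1, Ccr2 and Fn1 are highest in libraries 1 and 5, whereas Cd74, H2-Ab1, Flt3 and Cd209a are highest in libraries 2 to 4.

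Genes of alveolar macrophage identity were higher in macrophages: 27 of 27 rose, 24 of them past 2-fold, with a median of 5.41. Pparg, the nuclear receptor that directs this identity, was at 103, 114, 88.9, 92.7 and 95.2 CPM in macrophage libraries 1 to 5 and 5.89, 7.76, 7.87, 7.40 and 1.75 CPM in monocyte libraries 1 to 5, a rise of 4.05 ± 0.33 (adjusted p = 1.11e-13). Marco, a scavenger receptor for particles, was at 14.3, 6.46, 8.36, 36.1 and 11.6 CPM and had no monocyte count (at least 192-fold higher). Slc7a2, an arginine transporter, rose by 9.94 ± 0.35 (816 ± 54.4 against 0.764 ± 0.934 CPM), and Plet1, a surface protein of alveolar macrophages and epithelium, by 9.24 ± 0.42 (547 ± 47.9 against 0.852 ± 1.07 CPM). Lpl (lipoprotein lipase) was at 4520.4, 4478, 4172, 3683 and 3701 CPM in macrophage libraries 1 to 5 and 73.5, 49.9, 137, 303 and 96.4 CPM in monocyte libraries 1 to 5. The lowest macrophage value was above 10 times the highest monocyte value. The chitinase-like Chil3 (Ym1) rose by 1.65 ± 0.27 from an already high level (4498 ± 1077 against 1465 ± 381 CPM). Csf2rb, a receptor chain for GM-CSF, the cytokine that drives this fate, rose by 1.02 ± 0.14. The related Csf2rb2, a chain of the IL-3 receptor, rose by 2.04 ± 0.17. Csf2ra, the partner of Csf2rb, differed least, by 0.34 ± 0.11, and was not called with offsets for GC content and length (0.03, adjusted p = 0.851).

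Genes known from interstitial and other tissue macrophages rose too, 18 of 24, with 5 lower. The chains of C1q, which opens the classical complement pathway, rose together: C1qa was at 1012, 1191, 872, 1228 and 849 CPM in macrophage libraries 1 to 5 and 2.26, 0, 0.463, 2.83 and 0.624 CPM in monocyte libraries 1 to 5, C1qb rose by 7.66 ± 0.47 and C1qc by 9.48 ± 0.50. Ccl8, a chemokine, was at 8.24, 15.3, 9.79, 19.6 and 6.29 CPM with no monocyte count (at least 145-fold higher), and the folate receptor Folr2 rose by 7.09 ± 0.68 (21.7 ± 9.43 against 0.146 ± 0.222 CPM). The transcription factor Maf, which belongs to this programme, fell by 1.67 ± 0.20. Lyve1 (4.46 ± 2.90 CPM) and Timd4 (0.826 ± 0.511 CPM) were called higher at low levels, and Cd163 was not called (0.30 ± 0.41, adjusted p = 0.543).

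The lipid-associated set, named after macrophages of fat and of scars, rose in 23 of 24 members. Gpnmb, a membrane glycoprotein of loaded lysosomes, was at 877, 997, 829.6, 762 and 978 CPM in macrophage libraries 1 to 5 and 1.77, 0.887, 0, 3.05 and 2.12 CPM in monocyte libraries 1 to 5. Fabp5, which carries fatty acids, rose by 4.55 ± 0.24, Cd9 by 7.39 ± 0.37 (2139 ± 143 against 12.8 ± 5.87 CPM), and Trem2, a lipid receptor, by 3.07 ± 0.22 (358 ± 38.1 against 43.4 ± 12.1 CPM). Syngr1, a vesicle protein, was at 44.8, 49.0, 37.7, 47.9 and 44.3 CPM with no monocyte count (at least 600.4-fold higher). Tyrobp (DAP12), through which TREM2 signals, was not called (712 ± 56.2 against 809.8 ± 236 CPM, -0.14 ± 0.11, adjusted p = 0.252).

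Osteoclasts, the bone-resorbing macrophages, share an acid-secreting and bone-degrading gene set, and 9 of its 15 tested members rose, 2 fell and 4 were not called. Ctsk, the collagen-cleaving cathepsin of osteoclasts, was at 616, 484, 529.8, 365 and 615 CPM in macrophage libraries 1 to 5 and 0.196, 0.554, 1.39, 1.31 and 0.999 CPM in monocyte libraries 1 to 5. Acp5 (tartrate-resistant acid phosphatase) was at 696, 709.9, 676, 585 and 638 CPM in macrophage libraries 1 to 5 and 19.8, 17.7, 11.001, 7.83 and 15.4 CPM in monocyte libraries 1 to 5. Both were separated in all libraries, with rises of 9.32 ± 0.36 and 5.52 ± 0.29. Dcstamp, needed for cell fusion, rose by 6.26 ± 0.64 (17.4 ± 1.87 against 0.187 ± 0.256 CPM) and the kinase Src by 6.58 ± 0.50. Against this, Nfatc1, the regulator of osteoclast formation, fell by 0.61 ± 0.12 (117 ± 8.35 against 183 ± 28.4 CPM), and Itgb3, the osteoclast integrin chain, by 4.84 ± 0.48 (0.750 ± 1.01 against 25.6 ± 11.1 CPM). Mmp9 was at 0.954 ± 0.794 against 1.55 ± 1.15 CPM and was not called.

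Enzymes that degrade matrix were higher in 14 of 20 cases and lower in 4. Mmp12, the macrophage elastase, was at 1032, 1235, 892, 949.6 and 859 CPM in macrophage libraries 1 to 5 and 0.883, 0.111, 0, 0 and 1.998 CPM in monocyte libraries 1 to 5. Mmp14, a membrane collagenase, was at 339.5, 390.4, 334, 280.1 and 351 CPM in macrophage libraries 1 to 5 and 0.392, 2.88, 1.27, 0 and 0.500 CPM in monocyte libraries 1 to 5. Neither was above 2.88 CPM in a monocyte library, and the rises were 10.60 ± 0.56 and 8.28 ± 0.58. Mmp19 rose by 3.26 ± 0.43 and the inhibitor Timp2 by 3.58 ± 0.16 (623 ± 36.5 against 53.7 ± 8.93 CPM), while Mmp8, the neutrophil collagenase, fell by 2.03 ± 0.33. Among matrix proteins themselves, 7 of 17 rose and 4 fell, beside 31% higher and 29% lower over all genes. Ccdc80 rose by 9.41 ± 0.40 (206 ± 12.5 against 0.248 ± 0.343 CPM) and Ecm1 by 2.81 ± 0.20, while Thbs1 fell by 5.64 ± 0.66, Vcan by 5.20 ± 0.69 and Emilin2 by 2.11 ± 0.14.

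Growth factors rose in 14 of 26 cases and fell in 6. Igf1, which acts on epithelium and fibroblasts, was at 254, 229, 231, 215 and 218 CPM in macrophage libraries 1 to 5 and 0, 0.776, 1.16, 0 and 0 CPM in monocyte libraries 1 to 5. Pdgfa, the other fibroblast growth factor beside Pdgfc, was at 27.7, 43.3, 34.5, 26.9 and 29.6 CPM in macrophage libraries 1 to 5 and 0.196, 2.11, 0.579, 0 and 0.749 CPM in monocyte libraries 1 to 5. Both were separated in all libraries (rises of 9.08 ± 0.60 and 5.38 ± 0.39). Hgf, which supports epithelial repair, rose by 2.55 ± 0.24 (74.0 ± 7.73 against 12.5 ± 5.74 CPM) and Grn (progranulin) by 1.10 ± 0.09. Tgfb1, the main profibrotic cytokine, fell by 0.59 ± 0.10 (412 ± 17.7 against 636 ± 119.8 CPM), Vegfa by 3.26 ± 0.57 (3.90 ± 1.32 against 37.8 ± 23.4 CPM) and Osm (oncostatin M) by 1.40 ± 0.26. The receptors for TGF-beta, Tgfbr1 and Tgfbr2, rose by 2.38 ± 0.17 and 1.58 ± 0.14.

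Clotting and plasmin genes changed in both directions (11 higher and 7 lower of 22). Factor VII (F7), which starts the extrinsic pathway, was at 628, 648, 591, 639.9 and 604 CPM in macrophage libraries 1 to 5 and 3.92, 1.44, 1.27, 2.18 and 2.25 CPM in monocyte libraries 1 to 5, a rise of 8.12 ± 0.39. Plau (urokinase, which activates plasminogen) rose by 5.09 ± 0.41, with Procr, the receptor of protein C, at 15.6 ± 2.40 against 0.202 ± 0.385 CPM (5.95 ± 0.61), while the urokinase receptor Plaur fell by 0.76 ± 0.19. Thbd (thrombomodulin) fell by 3.36 ± 0.27 (34.5 ± 3.96 against 361 ± 99.1 CPM), along with F5 and F13a1 above. Receptors for dying cells and their bridging proteins rose in 20 of 27 cases: Axl, a kinase of the Mertk family, rose by 4.57 ± 0.20 (2145 ± 71.4 against 91.7 ± 32.2 CPM), the bridge proteins Gas6 and Mfge8 by 5.84 ± 0.67 and 4.64 ± 0.32, and the oxidised lipoprotein receptor Olr1 by 6.19 ± 0.24. Cd300a, an inhibitory receptor for the lipids that dying cells expose, fell by 2.16 ± 0.14.

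Lysosomal genes are switched on as a network by the factors TFEB and TFE3, which bind the CLEAR element. Hydrolases rose in 38 of 44 cases and lysosomal membrane and proton pump genes in 29 of 37, with 2 and 1 lower. The summed level of the 44 hydrolases, in which Lyz2 and Psap weigh most in monocytes, was 98886, 100200, 96074, 91789 and 97862 CPM in macrophage libraries 1 to 5 and 45916, 38400, 40939, 47553 and 38678 CPM in monocyte libraries 1 to 5. Ctsd was at 12667, 12173, 12542, 12083 and 13005 CPM in macrophage libraries 1 to 5 and 606, 331, 279.6, 277 and 549.6 CPM in monocyte libraries 1 to 5. Ctsl (cathepsin L) was at 1079.9, 1029, 992, 1031 and 994 CPM in macrophage libraries 1 to 5 and 96.0, 51.6, 45.3, 53.1 and 97.5 CPM in monocyte libraries 1 to 5. They rose by 4.96 ± 0.25 and 3.92 ± 0.30, and with them the acid lipase Lipa (2.52 ± 0.19), legumain (Lgmn, 2.59 ± 0.15) and the phospholipase Pla2g15 (2.96 ± 0.18). Changes in the pump were smaller (Atp6v0a1 1.86 ± 0.18, Atp6v1a 0.90 ± 0.18, Lamp1 0.54 ± 0.09), apart from Atp6v0d2. The heparan sulfate enzymes Hgsnat and Sgsh fell by 1.28 ± 0.12 and 0.99 ± 0.19, and Npc2 by 0.31 ± 0.11. Tfeb (88.2 ± 13.4 against 96.7 ± 29.1 CPM) and Tfe3 (108 ± 8.24 against 119.9 ± 10.3 CPM) were not called, although with offsets for GC content and length both were called lower (-0.37, adjusted p = 0.0236, and -0.26, adjusted p = 0.0221). The related Mitf rose by 1.46 ± 0.19 (100.5 ± 10.1 against 36.8 ± 11.9 CPM).

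Promoter windows from RefSeq (GRCm38.p6, 250 bases before to 50 after each start site) were searched for the CLEAR letters TCACGTGA, which read the same on both strands. They occur in 8 of 86 windows of the lysosomal genes (9.30%), 1.78% of the windows of all protein-coding genes tested and 0.974% of all windows. The genes were Ctsa, Ctsd, Gla, Atp6v0d1, Atp6v0e, Atp6v1a, Cln3 and Mcoln1. Shown here, with the match in capitals and 40 bases on either side (22 before the first match in Gla, where the window begins), are the member with the largest change, one with 2 matches, a pump subunit, and Cln3, which holds a match but was not called (-0.03 ± 0.14, adjusted p = 0.869). They lie at chr7:142387879-142387966, minus strand (Ctsd), chrX:134601153-134601255, minus strand (Gla, 1.24 ± 0.15), chr16:44139344-44139431, minus strand (Atp6v1a) and chr7:126583311-126583398, minus strand (Cln3), with the first match 99, 228, 132 and 122 bases before the start site.
Ctsd: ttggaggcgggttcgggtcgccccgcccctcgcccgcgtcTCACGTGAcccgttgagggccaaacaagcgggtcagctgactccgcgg
Gla: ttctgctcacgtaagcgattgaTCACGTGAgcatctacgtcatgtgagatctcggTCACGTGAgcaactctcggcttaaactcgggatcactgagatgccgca
Atp6v1a: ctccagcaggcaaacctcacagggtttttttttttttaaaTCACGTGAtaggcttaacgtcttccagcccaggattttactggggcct
Cln3: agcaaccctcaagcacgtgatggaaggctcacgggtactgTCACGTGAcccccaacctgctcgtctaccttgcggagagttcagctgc

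A match is a description of these letters and not a measured binding site. Windows of genes higher past 2-fold held the CLEAR letters in 0.904% of cases and windows of genes lower past 2-fold in 0.923%.

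Cholesterol handling shifted along with the lysosome. Macrophages export cholesterol under the liver X receptors, and of 23 genes of this group 14 rose and 7 fell. The pumps Abca1 and Abcg1 rose by 3.58 ± 0.22 and 3.19 ± 0.17: Abcg1 was at 1006, 869, 1085, 858 and 1179 CPM in macrophage libraries 1 to 5 and 109, 139, 122, 69.2 and 121 CPM in monocyte libraries 1 to 5. Nr1h3 (LXR alpha) rose by 2.65 ± 0.25 (49.8 ± 8.54 against 8.09 ± 4.07 CPM), and Ch25h, which makes 25-hydroxycholesterol, by 6.86 ± 0.55. Nr1h2 (LXR beta) fell by 0.42 ± 0.10, Cyp27a1, which makes 27-hydroxycholesterol, by 2.89 ± 0.19 (27.3 ± 6.54 against 210.0 ± 84.9 CPM), Apoc2 by 1.84 ± 0.27 and the lipid transporter Abca9 by 2.53 ± 0.21. Genes of cholesterol synthesis, targets of SREBP2, rose in 23 of 24 cases. Sterol load is known to raise efflux genes and to lower synthesis genes. Sqle, which makes squalene epoxide, was at 148, 114, 144, 164 and 160.4 CPM in macrophage libraries 1 to 5 and 13.8, 18.4, 19.7, 22.2 and 4.75 CPM in monocyte libraries 1 to 5. Every macrophage library was above every monocyte library, and Sqle rose by 3.27 ± 0.24, with Dhcr7 (3.09 ± 0.18), Hsd17b7 (3.04 ± 0.34) and Hmgcs1 (2.46 ± 0.15), which act in the same pathway.

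Fatty acid oxidation genes rose in 23 of 25 cases, among them Etfb (1.70 ± 0.15), which passes electrons to the respiratory chain, the dehydrogenase Acads (1.40 ± 0.14) and the isomerase Eci2 (1.30 ± 0.15). Citric acid cycle genes rose in 18 of 25 and respiratory chain genes in 40 of 66, but by small amounts: the medians were 0.51 and 0.46, and 23 respiratory chain genes were not called. In the cycle, Idh3a rose by 1.53 ± 0.16, Sdhc by 1.14 ± 0.12, Idh2 by 1.13 ± 0.14 and Sdhd by 0.87 ± 0.13, while Pdha1 fell by 0.75 ± 0.10 and Dlst by 0.64 ± 0.08. In the chain, Ndufa5 rose by 2.03 ± 0.23, Ndufa12 by 1.40 ± 0.23, Uqcrb by 1.32 ± 0.13 and Atp5g1 by 1.28 ± 0.20, while Ndufa6 fell by 0.88 ± 0.14 and Ndufb11 by 0.56 ± 0.15. With offsets for GC content and length the median of all genes moved to -0.16, so that medians of this size carry that uncertainty. Glycolysis did not move as a block (11 higher, 6 lower and 8 not called of 25, beside 31% higher and 29% lower over all genes). Aldoc was at 89.1, 81.7, 92.9, 95.9 and 112 CPM in macrophage libraries 1 to 5 and 3.92, 1.22, 4.52, 5.01 and 3.75 CPM in monocyte libraries 1 to 5, a rise of 4.75 ± 0.30. Slc16a1, which moves lactate, rose by 2.12 ± 0.35, Ldha by 1.40 ± 0.12 (520.3 ± 25.6 against 202 ± 14.3 CPM) and Aldoa by 1.08 ± 0.10, whereas Eno3, an enolase of nonclassical monocytes, fell by 2.82 ± 0.46 and Slc2a6, a lysosomal hexose transporter, by 2.43 ± 0.17.

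Iron genes rose in 13 of 20 cases, with Hebp1, which binds haem, changing most (176 ± 17.3 against 1.75 ± 0.900 CPM, 6.75 ± 0.27). Fth1, the ferritin chain that stores iron, was at 7960, 7823, 7690.2, 6815 and 7229.7 CPM in macrophage libraries 1 to 5 and 1333, 1236, 1090.2, 1913 and 1284 CPM in monocyte libraries 1 to 5. The light chain Ftl1 rose by 2.15 ± 0.11, Ncoa4, which delivers ferritin to lysosomes, by 2.68 ± 0.20, and the exporter Slc40a1 (ferroportin) by 4.78 ± 0.66 (18.6 ± 3.98 against 0.635 ± 1.08 CPM). Slc11a1 (NRAMP1), which removes metals from phagosomes, fell by 1.90 ± 0.20 (97.6 ± 12.3 against 371 ± 75.6 CPM) and the iron sensor Ireb2 by 0.37 ± 0.11. Antioxidant genes were divided, 16 higher and 8 lower of 32. Mgst3, a glutathione transferase, rose by 2.86 ± 0.30, Gclm, a subunit of glutathione synthesis, by 2.58 ± 0.21, Srxn1 by 2.35 ± 0.50, Prdx1 by 2.09 ± 0.13 (676 ± 74.5 against 163 ± 17.2 CPM) and Txnrd1 by 1.37 ± 0.19. Gsr, which recycles glutathione, was at 229, 236, 253, 236 and 248 CPM in macrophage libraries 1 to 5 and 1203, 904, 799, 823 and 1002 CPM in monocyte libraries 1 to 5. It fell by 1.95 ± 0.12, and with it Prdx6 by 1.70 ± 0.15 and Sod1 by 1.52 ± 0.13. Nfe2l2 (NRF2), the factor behind many of these genes, was not called (273 ± 38.3 against 287 ± 64.5 CPM).

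Ribosomal protein genes were lower in macrophages in 70 of 78 cases, with a median of -0.72 and none past 2-fold. Their summed level was 17132, 19944, 16198, 17459 and 15460 CPM in macrophage libraries 1 to 5 and 26859, 23064, 23589, 44431 and 27412 CPM in monocyte libraries 1 to 5. The groups did not overlap, and monocyte library 4 was the highest. Rpsa fell by 1.19 ± 0.13 (266 ± 19.7 against 630.0 ± 218 CPM), Rps9 by 1.10 ± 0.11 and Rps27a by 1.08 ± 0.13. Rps2 was the only member called higher (0.33 ± 0.09), and it was not called with the GC and length offsets. Members of this family share reads with pseudogene copies, so single values are uncertain.

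The integrated stress response lowers general translation while it raises the factor ATF4, and it is the process that ISRIB blocks. Its genes were divided, near the shares over all genes (31% higher and 29% lower): 10 higher, 8 lower and 9 not called of 27. With offsets for GC content and length the order turned, to 10 higher and 13 lower. Phgdh, the first enzyme of serine synthesis, was at 19.1, 22.9, 20.7, 11.8 and 19.2 CPM in macrophage libraries 1 to 5 and 0, 0.554, 1.04, 0.653 and 0.749 CPM in monocyte libraries 1 to 5. The transporters Slc7a11 and Slc7a5 rose by 2.27 ± 0.42 and 2.16 ± 0.25, and Gdf15, a stress cytokine, by 4.46 ± 0.57. Atf4 itself fell by 0.98 ± 0.17 (101 ± 12.2 against 205 ± 60.5 CPM), Atf3 by 3.54 ± 0.36 (73.1 ± 21.9 against 873 ± 246 CPM) and Ppp1r15a (GADD34), which reverses the response, by 3.61 ± 0.24. Ddit4 was at 0.988, 0.388, 0.239, 1.02 and 1.56 CPM in macrophage libraries 1 to 5 and 37.1, 139.6, 172, 148 and 52.2 CPM in monocyte libraries 1 to 5. Its fall of 6.82 ± 0.52 was the largest of the set, and Ddit3 (CHOP) was not called (9.76 ± 4.39 against 8.71 ± 1.36 CPM). Chaperones of the endoplasmic reticulum rose in 15 of 23 cases by modest amounts (Pdia4 1.64 ± 0.16, Calr 1.35 ± 0.12, Canx 0.92 ± 0.10, Sdf2l1 0.89 ± 0.17, Hspa5 0.48 ± 0.17), while the sensors Ern1 and Atf6 fell by 1.50 ± 0.18 and 0.86 ± 0.09. Hspa5 was not called with offsets for GC content and length (0.21, adjusted p = 0.311), without monocyte library 5 (adjusted p = 0.0538) or without macrophage library 5 (adjusted p = 0.0593).

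Cell cycle genes rose in 36 of 39 cases, 29 past 2-fold. Cdk1, the mitotic kinase, was at 22.4, 22.9, 19.8, 11.3 and 16.2 CPM in macrophage libraries 1 to 5 and 0, 0, 0, 0 and 0.250 CPM in monocyte libraries 1 to 5. Top2a was at 105, 89.5, 91.7, 81.9 and 74.9 CPM in macrophage libraries 1 to 5 and 1.08, 3.33, 4.75, 6.96 and 4.75 CPM in monocyte libraries 1 to 5. Mki67 was at 142, 131, 131, 139 and 129 CPM in macrophage libraries 1 to 5 and 35.8, 36.03, 29.2, 15.4 and 46.6 CPM in monocyte libraries 1 to 5. All 3 were higher in every macrophage library, although the summed level of the 39 genes stayed low in both groups, at 1315, 1225, 1253, 1201 and 1134 CPM in macrophages and 295, 297, 301, 326 and 380.5 CPM in monocytes. Ccnb1 rose by 6.92 ± 0.98, Uhrf1 by 6.82 ± 0.65, Tpx2 by 5.41 ± 0.49 and the replication helicase Mcm6 by 2.51 ± 0.22, while E2f1, Tk1 and E2f8 were not called. E2f1 stood at 46.1 CPM in monocyte library 4 and at 13.2 to 16.9 CPM in the other monocyte libraries. Without monocyte library 4 it was called higher (0.91, adjusted p = 1.59e-05), as it was with limma voom (0.73, adjusted p = 0.00135) and without macrophage library 1 (0.53, adjusted p = 0.0465).

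Promoters of mitotic genes are known for CCAAT boxes and the CHR element. The letters CCAAT occur on either strand in 27 of 35 windows of these genes (77.1%, against 37.6% of protein-coding genes tested and 37.4% of all windows), and TTTGAA on either strand in 40% (against 12.2% and 17.9%). TTTCCCGC, the letters of an E2F site, occur on either strand in 8.57% against 2.01% and 1.07%. The upstream windows of Cdk1 (chr10:69352913-69353160, minus strand, first match 208 bases before the start) and Cdc20 (chr4:118437344-118437436, minus strand, 53 bases before, 4.52 ± 0.55) are shown because both hold the pair, with CCAAT and TTTGAA, or the same letters of the other strand, in capitals.
Cdk1: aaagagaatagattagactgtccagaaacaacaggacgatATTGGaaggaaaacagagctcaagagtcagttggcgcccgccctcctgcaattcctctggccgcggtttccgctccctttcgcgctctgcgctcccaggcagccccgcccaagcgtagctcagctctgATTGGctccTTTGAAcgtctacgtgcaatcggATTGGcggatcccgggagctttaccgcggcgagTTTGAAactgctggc
Cdc20: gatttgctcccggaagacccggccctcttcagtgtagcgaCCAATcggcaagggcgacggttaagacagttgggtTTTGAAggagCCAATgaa

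Interferon-induced genes were lower in macrophages almost without exception. Type I interferon acts through STAT2 and IRF9, among other factors, on the interferon-stimulated response element, and of 42 genes it is known to induce, 40 fell, 29 of them past 2-fold, and none rose (median -2.39). Their summed level was 1423, 1454, 1536, 1564 and 1487 CPM in macrophage libraries 1 to 5 and 6522, 7729.5, 8289.9, 8363 and 6576 CPM in monocyte libraries 1 to 5. The lowest monocyte library was thus above 4 times the highest macrophage library. Ifitm3, which blocks viral entry, was at 15.2, 16.4, 8.60, 17.6 and 9.65 CPM in macrophage libraries 1 to 5 and 1229, 1205, 1223, 1965 and 1022 CPM in monocyte libraries 1 to 5. Irf7, the factor that amplifies interferon, was at 20.4, 20.04, 30.9, 35.4 and 22.9 CPM in macrophage libraries 1 to 5 and 237, 308, 333, 397 and 166 CPM in monocyte libraries 1 to 5. Both were separated in all libraries, with falls of 6.60 ± 0.24 and 3.43 ± 0.33. Ifitm1 fell by 6.24 ± 0.57, Slfn1 by 4.30 ± 0.36, Mx1 by 3.46 ± 0.33, the DNA sensor Ifi213 by 4.58 ± 0.37, Oas3 by 3.02 ± 0.36 and Isg15 by 1.82 ± 0.40, the factors Stat2 and Irf9 by 1.30 ± 0.22 and 1.60 ± 0.15, and the receptor chains Ifnar1 and Ifnar2 by 1.27 ± 0.12 and 1.06 ± 0.10. Bst2 (78.4 ± 14.4 against 81.0 ± 27.8 CPM) and Ifi44 were the members that were not called.

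The letters GAAANNGAAA, a core of that response element, occur on either strand in 22 of 40 windows of these genes (55.0%), in 3.21% of windows of protein-coding genes tested and in 3.44% of all windows. Over the whole comparison they occur in 6.56% of windows of genes lower past 2-fold and in 2.11% of those higher. Shown, with matches in capitals, are Ifit3 and Isg15, which hold 2 and 3, Oas3 and Ifi213, and Bst2, which holds 2 but was not called. They lie at chr19:34583333-34583456, plus strand (Ifit3, 2.25 ± 0.48 lower), chr4:156200835-156200936, minus strand (Isg15), chr5:120777685-120777774, minus strand (Oas3), chr1:173599296-173599385, minus strand (Ifi213) and chr8:71537547-71537642, minus strand (Bst2), with the first match 156, 78, 75, 73 and 130 bases before the start site. In Ifit3 the letters stand on the other strand, and where matches overlap, as in Isg15 and Bst2, they form 1 run of capitals.
Ifit3: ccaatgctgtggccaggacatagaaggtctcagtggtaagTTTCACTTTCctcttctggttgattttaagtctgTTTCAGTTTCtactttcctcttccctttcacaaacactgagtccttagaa
Isg15: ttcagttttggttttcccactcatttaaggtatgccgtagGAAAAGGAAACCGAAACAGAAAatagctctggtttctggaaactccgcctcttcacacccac
Oas3: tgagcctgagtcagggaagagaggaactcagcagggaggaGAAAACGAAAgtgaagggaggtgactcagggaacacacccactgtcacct
Ifi213: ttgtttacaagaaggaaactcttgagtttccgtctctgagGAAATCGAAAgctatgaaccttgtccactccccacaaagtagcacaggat
Bst2: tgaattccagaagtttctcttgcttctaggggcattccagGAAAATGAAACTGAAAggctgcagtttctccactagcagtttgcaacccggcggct

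**Figure D3:**
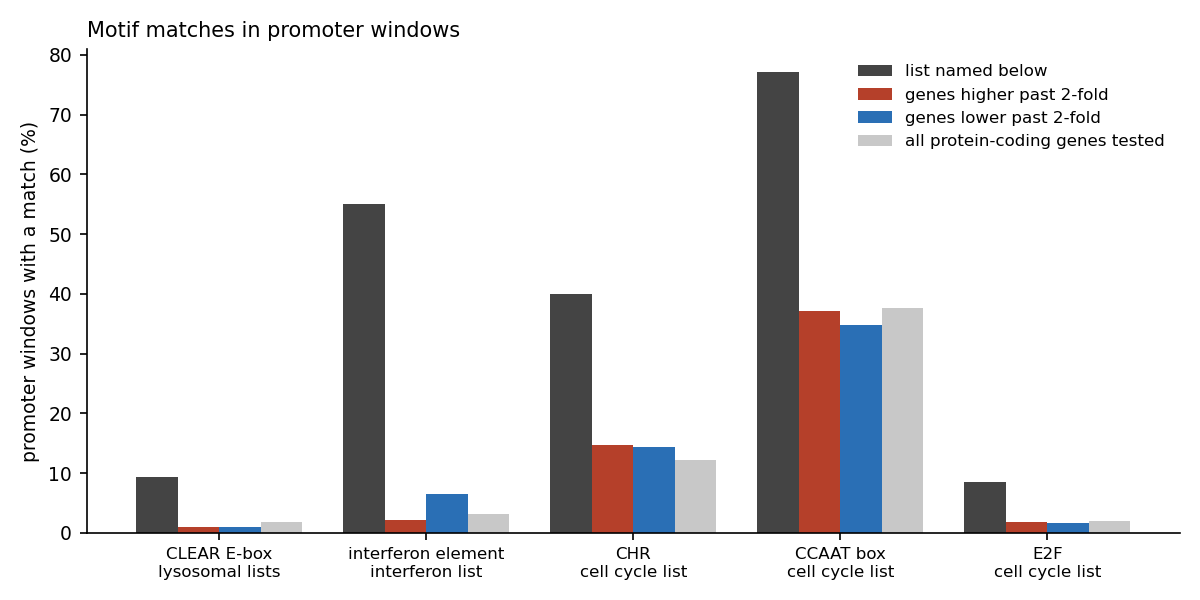
Percent of RefSeq promoter windows (250 bases before to 50 after the start) that hold each motif's letters, for the lysosomal, interferon and cell cycle lists beside genes higher or lower past 2-fold and all protein-coding genes tested. The interferon element is in 55% of windows of the interferon list and 3.21% of all tested windows.

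Antigen presentation by class II molecules rose, in 9 of 13 genes with 1 lower. The summed level was 12205, 11950, 11408, 9049 and 11750 CPM in macrophage libraries 1 to 5 and 2055, 2977, 3862, 5159 and 1296 CPM in monocyte libraries 1 to 5, so that the macrophages were alike and the monocytes spread about 4-fold. H2-Ab1 was at 1727, 1674, 1568, 1193 and 1655 CPM in macrophage libraries 1 to 5 and 188, 331, 445, 518 and 53.4 CPM in monocyte libraries 1 to 5, a rise of 2.40 ± 0.32 (adjusted p = 3.50e-08). H2-Eb1 rose by 2.82 ± 0.35 and H2-Aa by 2.34 ± 0.34, and Ciita, the coactivator of these genes, by 0.90 ± 0.27 (76.2 ± 13.6 against 41.6 ± 16.1 CPM), with libraries that overlapped.

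Chemokine genes mostly rose (13 higher, 6 lower of 21). Cxcl16 rose by 4.68 ± 0.26 (155 ± 9.27 against 6.25 ± 3.09 CPM), Cxcl14 by 8.40 ± 0.63 (45.5 ± 12.2 against 0.112 ± 0.201 CPM), the platelet factor Pf4 by 6.77 ± 0.80 (14.8 ± 7.95 against 0.114 ± 0.169 CPM), and Ccl17 and Ccl22, ligands of CCR4, by 6.81 ± 0.71 and 5.47 ± 0.86. The inflammatory chemokines Cxcl2 (1.98 ± 0.37 lower), Ccl4 (2.38 ± 0.41), Ccl3 (1.34 ± 0.26) and Ccl2 (1.63 ± 0.28) fell. Inflammatory cytokines and inflammasome genes fell in 15 of 23 cases and rose in 5. Il1b was at 113, 151, 85.8, 94.0 and 165 CPM in macrophage libraries 1 to 5 and 718, 462, 216, 418 and 223 CPM in monocyte libraries 1 to 5. Il1rn, which blocks the IL-1 receptor, was at 181, 246, 215, 193 and 192 CPM in macrophage libraries 1 to 5 and 21.6, 17.9, 12.6, 15.2 and 13.99 CPM in monocyte libraries 1 to 5. The cytokine thus fell by 1.73 ± 0.44 where its antagonist rose by 3.68 ± 0.21, and Il1a rose by 3.35 ± 0.49. Ptgs2 (COX-2) fell by 6.03 ± 0.68 (2.72 ± 2.78 against 171 ± 84.3 CPM) and the decoy receptor Il1r2 by 4.02 ± 0.79. Nfkbiz, a nuclear member of the I-kappa-B family, fell by 3.86 ± 0.27 (25.6 ± 4.27 against 383 ± 99.7 CPM). The inflammasome sensor Nlrp3 fell by 2.12 ± 0.25 and Il6 by 4.29 ± 0.90, and Tnf rose by 1.82 ± 0.39 (11.7 ± 1.63 against 3.37 ± 1.38 CPM).

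Genes tied to the response to IL-4 rose in 12 of 18 cases and fell in 4. Arg1 (arginase) was at 129, 168, 66.9, 657 and 77.5 CPM in macrophage libraries 1 to 5 and 0.0981, 1.11, 0.695, 0.218 and 0.624 CPM in monocyte libraries 1 to 5. Macrophage library 4 held the highest value and the group spread almost 10-fold, yet every library was above the monocytes, and the rise was 8.59 ± 0.95 (adjusted p = 4.70e-10). Fcrls rose by 7.15 ± 0.45, Socs2 by 7.57 ± 0.43 and Tgm2 by 2.61 ± 0.43, while Cd209a fell by 5.25 ± 0.78, Clec10a by 2.67 ± 0.25 and Stat6, the factor IL-4 signals through, by 0.79 ± 0.07. Complement genes rose in 13 of 20 cases, with C4b at 88.2 ± 23.4 against 7.05 ± 5.76 CPM (3.58 ± 0.54) and Cfb at 26.5 ± 4.60 against 2.58 ± 1.204 CPM (3.44 ± 0.46), but C3 was at 192, 231, 202, 148 and 263 CPM in macrophage libraries 1 to 5 and 1565, 1304, 1277, 1038 and 1922 CPM in monocyte libraries 1 to 5. C3 fell by 2.74 ± 0.29, and Itgam, a chain of the receptor for its fragments, fell as given above.

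Receptors for the antibody tail and their kinases changed in both directions (3 higher, 4 lower and 5 not called of 12), near the 31% higher and 29% lower over all genes. That order turned to 4 higher and 3 lower with only the 10 libraries in the fit and without monocyte library 1. Fcgr2b, the inhibitory receptor, rose by 0.91 ± 0.17 and the recycling receptor Fcgrt by 1.67 ± 0.20, while the kinases Lyn and Syk fell by 1.24 ± 0.09 and 0.81 ± 0.11. Pattern recognition receptors fell more often than they rose (16 against 7 of 32). Clec4n (dectin-2) was at 935, 1002, 919, 931 and 919 CPM in macrophage libraries 1 to 5 and 21.8, 18.8, 11.2, 15.2 and 29.2 CPM in monocyte libraries 1 to 5. Clec4a1 was at 10.5, 12.8, 4.90, 10.2 and 6.60 CPM in macrophage libraries 1 to 5 and 325, 303, 328, 437 and 340.3 CPM in monocyte libraries 1 to 5. These lectins of one gene cluster moved in opposite directions, by 5.64 ± 0.29 up and 5.25 ± 0.19 down. Tlr4 and Tlr3 rose by 1.71 ± 0.29 and 3.06 ± 0.33, and Tlr5, Tlr9, Tlr7 and Tlr13 fell by 3.35 ± 0.59, 2.64 ± 0.24, 1.18 ± 0.13 and 1.70 ± 0.13, as did the lectin Clec4e (Mincle) by 2.41 ± 0.35. Cytokine receptors fell in 15 of 23 cases, with Csf3r (28.6 ± 7.04 against 429.7 ± 37.4 CPM), Il6ra (113 ± 20.4 against 555 ± 72.3 CPM) and Il10ra (175 ± 9.49 against 633 ± 174 CPM) lower by 3.87 ± 0.17, 2.26 ± 0.12 and 1.81 ± 0.14.

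Among 60 transcription factors, 35 fell and 13 rose. Besides Bhlhe41 and Pparg, the risers included Egr2 (3.92 ± 0.30, 103 ± 8.75 against 7.13 ± 1.93 CPM), Tfec (2.85 ± 0.42), Bhlhe40 (1.77 ± 0.28) and Cebpa (0.98 ± 0.17). Klf2, a quiescence factor of leukocytes and endothelium, was at 17.5, 14.5, 14.8, 20.03 and 15.3 CPM in macrophage libraries 1 to 5 and 452, 715, 751, 1006 and 325 CPM in monocyte libraries 1 to 5. It fell by 5.26 ± 0.40 (adjusted p = 1.67e-14), and Runx3 fell by 3.72 ± 0.30 and Irf5 by 1.63 ± 0.11. Of the genes on this list that are known to respond within minutes to stimulation, Egr2 rose as given, while Nr4a2 (3.57 ± 0.45), Egr1 (2.82 ± 0.48), Fosb (2.16 ± 0.32), Junb (1.78 ± 0.19) and Jun (1.60 ± 0.26) fell. Fos was at 965, 1070.3, 804, 892 and 733 CPM in macrophage libraries 1 to 5 and 2903, 5216, 4878, 5533 and 4299 CPM in monocyte libraries 1 to 5. Every monocyte library was above every macrophage library. Spi1 (PU.1), which both cell types need, was at 438 ± 15.7 against 535 ± 108 CPM and fell by 0.25 ± 0.09. That call was lost without monocyte library 4 (-0.13, adjusted p = 0.138), with only the 10 libraries in the fit (adjusted p = 0.16) and with no filter on low counts (adjusted p = 0.0509).

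**Figure D4:**
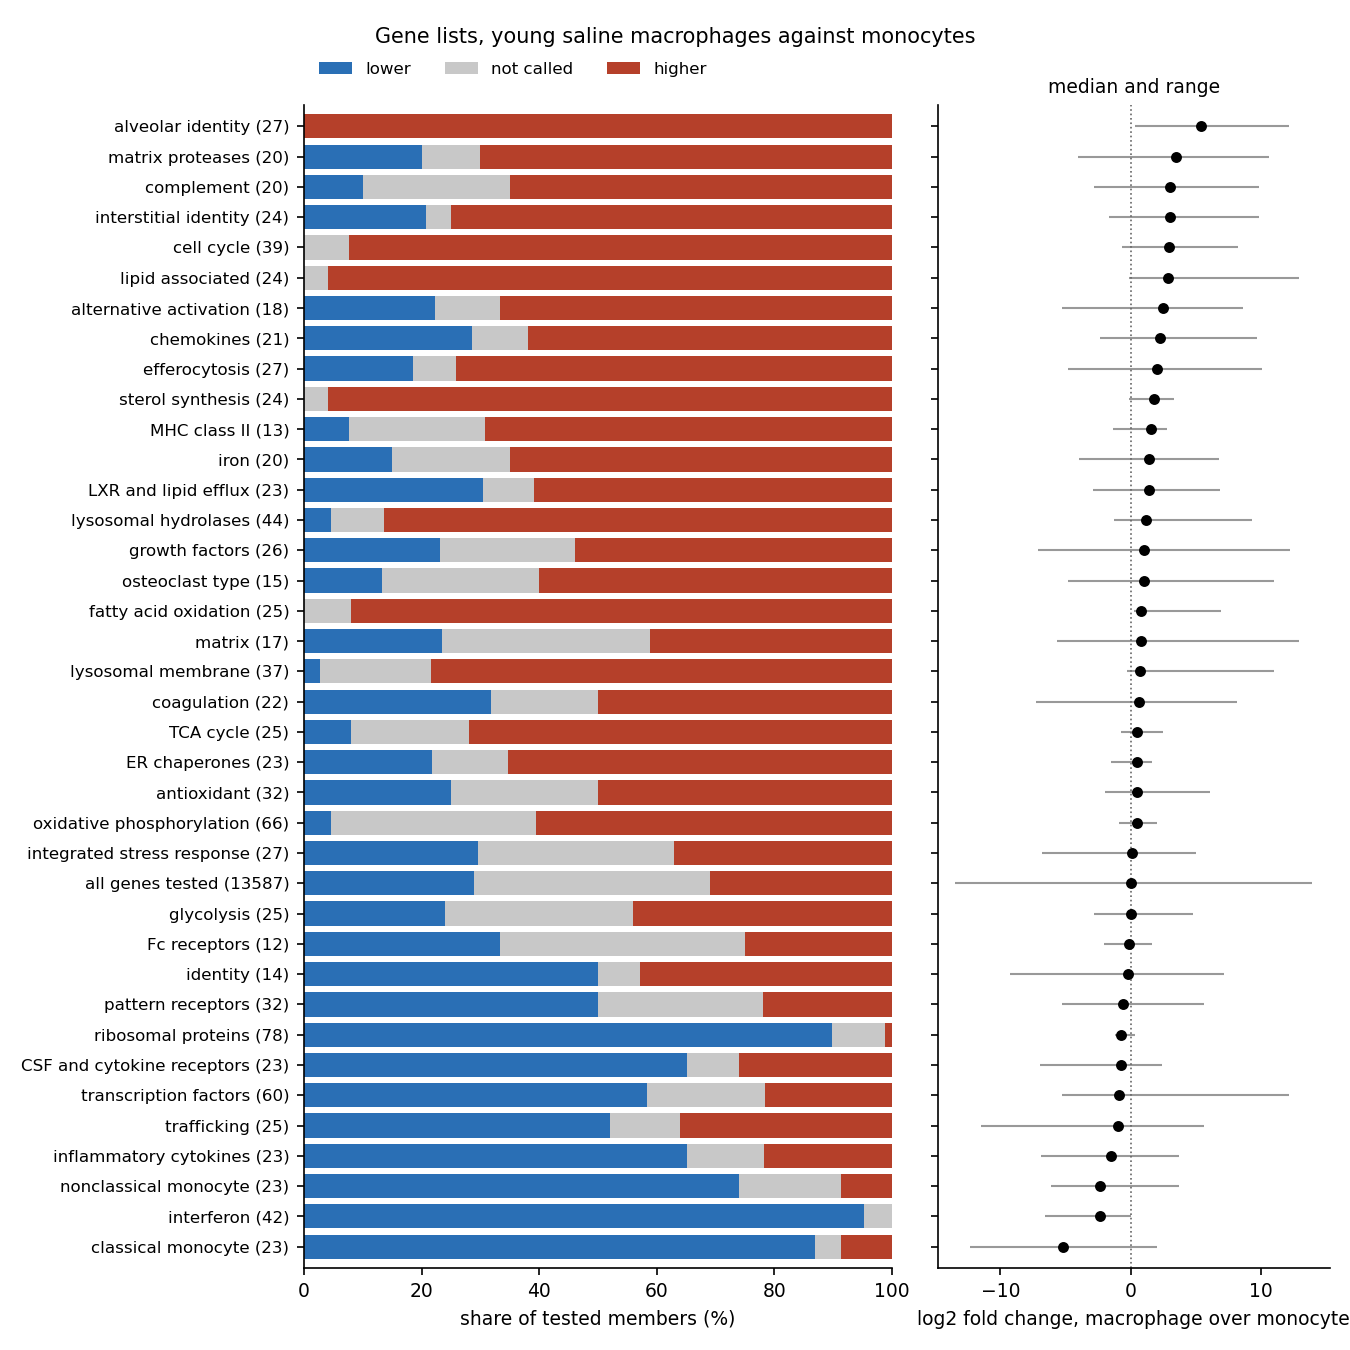
Left, the share of tested members of each list called higher or lower in macrophages; right, the median log2 fold change of each list with its range. The alveolar identity list is higher in 27 of 27 members and the interferon list lower in 40 of 42, beside 31% and 29% of all genes.

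Markers of other cell types that a sort could carry over were summed per library. For B cells the sum was 8.71 to 30.3 CPM in macrophages and 159 to 265 CPM in monocytes (two-sided exact permutation test over the 10 libraries, adjusted p = 0.0218 over 11 lists, with 0.00794 the smallest p this design can give). In monocytes most of it came from Ighm (191 CPM, beside 9.62 CPM in macrophages), and 7 of 12 tested B cell markers were called lower. The defining Cd79a was at 0.412 CPM in macrophages and 2.22 CPM in monocytes, and Cd79b at 0.440 CPM and 10.4 CPM. For T and NK cells (13 of 18 tested markers lower) the sums were 5.04 to 9.59 and 15.7 to 58.5 CPM, and for neutrophils 85.2 to 128 and 532 to 889.6 CPM. Csf3r, which monocytes also express, made the larger share of the neutrophil sum in monocytes (430 CPM). In macrophages Csf3r was at 28.6 CPM, below Mmp8 at 43.5 CPM. Ly6g, which defines neutrophils, had no count in macrophages and averaged 0.189 CPM in monocytes. The epithelial sums overlapped (104 to 181 against 96.0 to 178 CPM), but 8 of the 12 tested epithelial markers were called higher in macrophages. Hopx and Krt7 were called lower, and without Hopx the mean sum was 79.4 CPM higher in macrophages (adjusted p = 0.0125). Sftpc, the surfactant gene of alveolar epithelium, was at 4.58 CPM in macrophages and 0.342 CPM in monocytes, Epcam at 13.2 CPM in macrophages and 0.0222 CPM in monocytes and Cdh1 (E-cadherin) at 60.6 CPM in macrophages and 0.701 CPM in monocytes, and Nkx2-1 was at 0 in all monocyte libraries and at most 0.129 CPM in macrophages. Endothelial, fibroblast, platelet, erythroid, dendritic and plasma cell sums gave no adjusted p under 0.05 (0.0873 for the erythroid sum and at least 0.116 for the others). The eosinophil and basophil sum was 48.0 to 59.4 against 0 to 2.43 CPM, and without Siglecf the means differed by 0.552 CPM (adjusted p = 0.563). The part of other cells in the differences above was not tested.

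Old saline mice gave the same comparison in 10 libraries that share none with the young groups, in the same fit. There 7739 of 13587 genes (57%) were called. Of the 8146 genes called in young mice, 6569 (80.6%) were called in the same direction in old mice and 14 in the opposite one. Of the 3049 past 2-fold in young mice, 2822 (92.6%) were called in the same direction in old mice and 0 in the opposite one. For old mice both counts use an adjusted p under 0.05 with no 2-fold threshold. Spp1 rose by 12.45 ± 0.46 in old mice, Pparg by 3.79 ± 0.32 and Mmp12 by 10.09 ± 0.53, and Plac8 fell by 9.43 ± 0.49, Ifitm3 by 6.11 ± 0.24 and Nr4a1 by 4.31 ± 0.38. The alveolar identity list was higher in 27 of 27 members again, and of the 40 interferon genes that fell in young mice 35 fell in old. Of the 10 class II genes called in young mice 5 recurred, and the median over the list was 0.56 in old mice where it was 1.58 in young. A direct test of young minus old called 2 of the 13 genes on this list, and both calls were lost in some of the alternatives run.

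A test of the difference itself, young minus old, called 34 genes (0.25% of those tested), and 5 of them (Abcc5, Ccl3, Ccr2, Col4a1 and Nfkbia) stayed called in every alternative that was run. These 5, Col4a2 and Ighm were chosen for this after their values were seen. Ccr2 fell further in old mice: old macrophage libraries were at 152, 195, 73.4, 93.3 and 62.7 CPM and old monocyte libraries at 2409, 3958, 2641, 2678 and 2126 CPM, a fall of 4.44 ± 0.32. The young macrophages, at 306, 333, 283, 453 and 246 CPM, thus kept more of it relative to their monocytes (young minus old 2.04 ± 0.40, adjusted p = 0.0152). Ccl3 was at 22.6, 25.5, 27.95, 18.4 and 20.9 CPM in macrophage libraries 1 to 5 and 48.2, 56.0, 53.7, 70.1 and 74.1 CPM in monocyte libraries 1 to 5 in young mice. In old mice it was at 40.1, 29.4, 68.0, 44.4 and 89.1 CPM in macrophages and 32.8, 41.7, 22.2, 39.6 and 37.4 CPM in monocytes, so that it fell by 1.34 ± 0.26 in young and rose by 0.77 ± 0.26 in old (difference -2.11 ± 0.37, adjusted p = 0.0074). Abcc5, a nucleotide transporter, rose by 0.50 ± 0.13 in young and 1.51 ± 0.13 in old mice (adjusted p = 0.0074 for the difference). Nfkbia, the inhibitor of NF-kappa-B, fell by 1.86 ± 0.18 in young and by 0.55 ± 0.18 in old mice (adjusted p = 0.0149 for the difference). Cxcl2 fell by 1.98 ± 0.37 in young mice and in old mice the value was 0.56 ± 0.36, which was not called (adjusted p = 0.184). The call of its young minus old difference (-2.54 ± 0.51, adjusted p = 0.0203) was lost without old macrophage library 5 (-2.29, adjusted p = 0.065).

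Genes of collagen IV, a basement membrane protein, and of immunoglobulin also differed between the ages. Col4a1 was at 8.73, 2.72, 5.61, 2.76 and 2.74 CPM in macrophage libraries 1 to 5 and 12.4, 9.54, 8.22, 16.97 and 9.37 CPM in monocyte libraries 1 to 5 in young mice. In old mice the values were 8.37, 8.03, 23.5, 10.2 and 17.3 CPM in macrophages and 6.72, 7.26, 4.67, 7.90 and 5.43 CPM in monocytes (difference -2.50 ± 0.46, adjusted p = 0.00972). Col4a2, its partner chain and divergent neighbour, was 3.85 ± 0.778 against 3.31 ± 1.70 CPM in young mice and not called there, but rose by 4.22 ± 0.43 in old mice. Ighm fell by 4.33 ± 0.53 in young mice and was -0.65 ± 0.44 (not called) in old mice, where macrophages were at 56.7, 72.9, 97.2, 7.80 and 276 CPM and monocytes at 232, 159, 142, 114 and 229.7 CPM (difference -3.68 ± 0.67, adjusted p = 0.00955). C1qc, which the naming rule covers, rose by 9.48 ± 0.50 in young and 6.62 ± 0.41 in old mice (adjusted p = 0.0357), and lost the call in 13 of the alternatives. The count of 34 itself moved with single libraries: it was 8 without old macrophage library 5, 14 without young macrophage library 1, 18 without young macrophage library 2 or old macrophage library 3, and 21 without young monocyte library 2. It was 53 without old monocyte library 5, 56 without young monocyte library 4, 62 without old macrophage library 2 and 71 without young monocyte library 5.

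**Figure D5:**
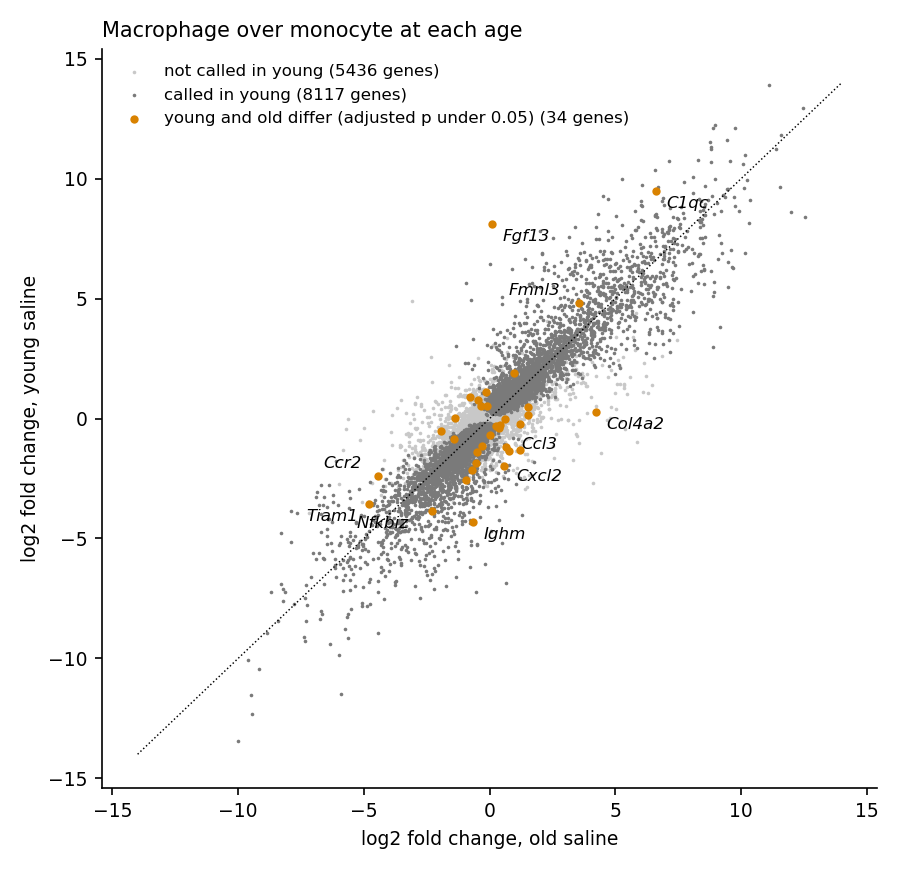
Log2 fold change of macrophage over monocyte for each of the 13587 genes tested, in old saline mice (horizontal) and young saline mice (vertical); the dotted line marks equal change. The 34 genes whose change differs between the ages are orange, among them Ccr2 and C1qc, and most called genes lie along the line.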

How the data were processed

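The authors deposited 1 table of raw counts per gene for the 39 libraries. Per the labels' protocols, polyA libraries were made from 3 ng of total RNA with a NEBNext Ultra kit. Per the submitters' processing notes the tools were bcl2fastq 2.19.1, FastQC, Trimmomatic 0.36, STAR 2.6.0 and HTSeq 0.11.2, with build mm10. Neither the annotation nor the strand setting of the counting step is given in the sources used here, so overlapping and antisense genes cannot be told apart. Symbols came from GENCODE vM21 (GRCm38), which matched 42462 of 43430 gene identifiers.

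The deposited counts were tested with edgeR 4.0.16 (R 4.3.3): all 39 libraries in 1 quasi-likelihood fit with a mean for each of 8 groups, TMM factors, edgeR's filter on low counts at its defaults, and Benjamini-Hochberg adjustment over 13587 genes. The 2-fold rule used glmTreat. The contrasts were macrophage minus monocyte in young mice, the same in old mice, and their difference. On simulated counts for the young contrast with 100 genes changed 2-fold and 100 changed 4-fold, 58 and 79 were recovered, with 7 false calls. CPM were counts divided by the library total, and no pair of libraries was close enough to be a repeat (chi-square per degree of freedom from 7.26 to 57.7). Alternatives were run with DESeq2 1.42.0 and limma 3.58.1, among others. Depth, from 4595331 to 16056708 counts, limits genes of a few reads. Intervals and floors cover counting error only.

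The members of the comparison, the 37 gene lists and the 11 lists of other cell types were chosen with earlier results of these data known. By the naming rule the text takes 12 genes per direction with the largest change past 2-fold, a mean of 50 CPM or more in the group where they are higher and libraries that do not overlap. It adds the 10 genes with the highest CPM per group, from each list the 4 called genes with the largest change in its main direction and 2 in the other at a minimum of 10 CPM, and the identity markers. This rule gave 209 genes, of which 6 are not reported here, and 127 others were picked after their values were seen. Of 1120 symbols listed, 1113 were matched and 1017 tested. Promoter windows came from RefSeq (GRCm38.p6), where 9580 of 12022 protein-coding genes tested had one.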

Additional observations from a re-analysis of the deposited data

Results flagged for a closer look

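For 15 of the genes named in the text the difference between macrophages and monocytes itself differed between young and old mice (edgeR, adjusted p under 0.05 for young minus old). The difference on the log2 scale was positive for Atf6 (0.57), Ciita (1.69), Ccr2 (2.04), C1qc (2.85) and Fgf13 (8.01). Fgf13 had no count in young monocytes, so its fitted value is not an exact size, and its call was lost in 2 of 29 alternatives. The difference was negative for Col4a2 (-3.95), Ighm (-3.68), Cxcl2 (-2.54), Col4a1 (-2.50), Ccl3 (-2.11), Nfkbiz (-1.56), Nfkbia (-1.31), Abcc5 (-1.02), Hspa8 (-0.82) and Hsp90ab1 (-0.77).

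In 67 of 645 groups of 5 libraries, taken over the genes named in the text, 1 library lay far from the others: the gap to its nearest neighbour took up a large part of the whole range of the group. For values with a normal spread, chance flags about 1 in 20 groups, or 32.2 of 645 here. Genes of few counts need not follow that rate, and genes are not independent of each other. The values that follow are that gap as a fraction of the range. Where all other libraries of a group held 0 CPM, the fraction is 1 however few the counts. Epcam, Slc36a2, Bhlhe41 and Bcar3, for example, had 1 count over all monocyte libraries, so their flags carry no weight. Macrophage library 1 was high for Plac8 (0.811) and low for Fpr1 (0.769). Macrophage library 2 was high for Clec4n (0.805), Ifitm6 (0.875) and Sod1 (0.753) and low for Lamp1 (0.821), Tgfbr2 (0.758) and Txnrd1 (0.787). Macrophage library 3 was high for F5 (0.737) and low for Cd300a (0.785). Macrophage library 4 was high for Arg1 (0.829), Cdh1 (0.865), Flt3 (0.794), Fn1 (0.738), Folr2 (0.736), Hopx (0.839), Marco (0.735), Nlrp3 (0.776), Slc40a1 (0.755) and Thbs1 (0.834) and low for Cd74 (0.763), Hp (0.868) and Tfeb (0.866). Macrophage library 5 was high for Hspa1b (0.882) and Nfkbia (0.789). Monocyte library 1 was high for Bcar3 (1), C1qc (0.818), Cd63 (0.774), Itgb7 (0.804), Krt79 (1) and Procr (0.859) and low for Egr1 (0.776), Irf9 (0.871) and Mx1 (0.797). Monocyte library 2 was high for Ccl17 (0.853), Dlst (0.737), Epcam (1), Slc36a2 (1) and Uhrf1 (0.718). Monocyte library 3 was high for Atp6v0d2 (0.856), Cxcl14 (0.788), Kcnn3 (1), Krt19 (1) and Slc40a1 (0.869). Monocyte library 4 was high for Apoe (0.734), Atp5g1 (0.745), Clec4a1 (0.721), E2f1 (0.889), Fcgrt (0.859), Ftl1 (0.714), Ifitm3 (0.781), Ndufb11 (0.73), Rps27a (0.878), Rps9 (0.792), Spi1 (0.765) and Tyrobp (0.789) and low for Canx (0.741) and Lyn (0.804). Monocyte library 5 was high for Atp6v0a1 (0.81), Bhlhe41 (1), Cdk1 (1), Ch25h (1), F13a1 (0.717), Fcgr2b (0.777), Il1r2 (0.785) and Tpx2 (0.753) and low for Maf (0.738). 

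Monocyte library 4, the shallowest, and macrophage library 4 held the most such values, 14 and 13. Arg1 stood at 657 CPM in macrophage library 4 beside 66.9 to 168 CPM in the other 4. Cdh1 stood at 107 CPM in macrophage library 4 beside 45.2 to 53.5 CPM in the other 4.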

How the results depend on the processing

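The count of genes called in young mice was 6656 to 8345 under the 10 other settings and 7772 to 8134 leaving out 1 library at a time. Past 2-fold the ranges were 2372 to 3138 and 2882 to 3015, and in old mice 7339 to 8091 and 7341 to 7613. With GC and length offsets within each library the median change of all genes moved from 0.01 to -0.16, and the share of called genes that were higher moved from 51.7% to 42.6% (past 2-fold from 55.4% to 48.4%, in old mice from 52.1% to 42.9%). The count of genes that differed between the ages was 76 with no filter, 141 with DESeq2, 22 with limma voom and 8 to 71 leaving out 1 library. With the replicate number as a block the counts were 8037, 3030, 7676 and 37, against 8146, 3049, 7739 and 34 without it. Same-numbered young saline libraries did not deviate together (correlations from -0.035 to 0.026), so no pairing by number was seen in them. Such correlations cannot exclude a pairing or a shared batch. With only the 10 libraries in the fit, the old contrast and the difference could not be fitted.

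Of the 209 genes named by the rule, Psap, Actb, Rps2 and Adgre1 were no longer called with the GC and length offsets, Adgre1 was also lost without monocyte library 4, and Fcgr1 was called with only the 10 libraries. None changed direction. Among the other genes named, calls of Spi1, Csf2ra, Hspa5, Hsp90ab1, Tfeb, Tfe3 and E2f1 were lost or gained as given beside their values. The stress response list turned to 10 higher with 13 lower under the offsets, and the Fc receptor list to 3 lower with only the 10 libraries and without monocyte library 1. Marker sums, as macrophage minus monocyte CPM, moved as follows without the member of highest CPM: epithelium 79.4 without Hopx, platelets 23.6 without Itgb3, plasma cells 9.79 without Prdm1, endothelium 361 without Cd93, and eosinophils and basophils 0.552 without Siglecf. Most of the endothelial 361 was Car4, which is on that list, at 330 CPM in macrophages and 0.0838 CPM in monocytes. Pecam1 was at 1.77 CPM in macrophages and 11.7 CPM in monocytes. Of 14 tested endothelial markers, 3 were called higher and 2 lower. Leaving out 1 library gave -33.8 to -23.1 for T and NK cells, where each macrophage library left out raised the adjusted p to 0.065, in a design that allows fewer splits. It gave 67.1 to 131 for endothelium, 3.61 to 5.29 for erythroid cells and -143 to -75.1 for dendritic cells. The endothelium, erythroid and dendritic sums passed the test without monocyte library 1, and the erythroid sum also without monocyte library 5. The cause of these shifts was not tested.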

Other observations

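Some genes best known from epithelium were detected in every macrophage library, and those given here were chosen after their values were seen. Cdh1, which encodes the adhesion protein E-cadherin, was at 53.5, 49.8, 45.2, 107 and 47.0 CPM in macrophage libraries 1 to 5 and 0.883, 0.333, 1.04, 0 and 1.25 CPM in monocyte libraries 1 to 5. Epcam, an epithelial adhesion molecule, was at 18.6, 11.1, 16.7, 4.93 and 14.4 CPM in macrophage libraries 1 to 5 and 0, 0.111, 0, 0 and 0 CPM in monocyte libraries 1 to 5. The keratin Krt19, which is on the alveolar macrophage list, was at 36.6, 16.4, 41.8, 12.2 and 45.2 CPM in macrophage libraries 1 to 5 and 0, 0, 0.116, 0 and 0 CPM in monocyte libraries 1 to 5, and Krt79, on the same list, rose by 6.15 ± 0.99. All 4 were called higher and were at or near 0 in each monocyte library. On the epithelial marker list Hopx was at 26.5, 23.4, 26.8, 48.3 and 22.6 CPM in macrophage libraries 1 to 5 and 126, 84.3, 81.8, 146 and 109.9 CPM in monocyte libraries 1 to 5 and Krt7 at 0.165, 0, 0.119, 0.581 and 0.436 CPM in macrophage libraries 1 to 5 and 7.06, 8.54, 8.11, 10.4 and 2.87 CPM in monocyte libraries 1 to 5, and both were called lower. Sftpc, which alveolar epithelial cells make in very large amounts, was at 3.46, 5.30, 7.17, 3.19 and 3.80 CPM in macrophage libraries 1 to 5, and Nkx2-1, the factor that defines lung epithelium, had 2 counts over the 5 libraries. The part of epithelial RNA in these levels was not tested.

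Single heat shock genes, which no list held, were picked after their values were seen, so they carry no count for heat shock genes as a group. Hspa8, the constitutive chaperone HSC70, was at 512, 523, 602, 616 and 765 CPM in macrophage libraries 1 to 5 and 1255, 1491, 1347, 1545 and 1212 CPM in monocyte libraries 1 to 5. The groups did not overlap, and Hspa8 fell by 1.14 ± 0.13. Its inducible relatives Hspa1a and Hspa1b, near-identical copies whose reads can be split between them, fell by 3.54 ± 0.58 and 5.37 ± 0.96, the cochaperone Dnajb1 by 0.99 ± 0.18, Hsph1 by 1.31 ± 0.34, Hsp90aa1 by 0.76 ± 0.18 and Hsp90ab1 by 0.38 ± 0.13. Hsp90ab1 was not called without monocyte library 2 (-0.27, adjusted p = 0.0664), and in old mice it rose by 0.39 ± 0.13 (adjusted p = 0.00937). In old mice macrophages and monocytes overlapped for Hsph1 (45.4 to 121 against 24.4 to 151 CPM), Hsp90aa1 (81.6 to 121 against 68.7 to 158 CPM) and Hspa1b. Hspa1a (2.04 to 8.86 against 9.74 to 55.6 CPM) and Dnajb1 (25.1 to 44.9 against 49.6 to 88.4 CPM) were lower in every old macrophage library. Hspa8 fell by 0.32 ± 0.13 in old mice.

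Some single genes, picked in the same way, add to this. Il10, the anti-inflammatory cytokine, had no count in any young macrophage library and was at 0.883, 1.11, 0.463, 4.57 and 1.75 CPM in young monocyte libraries 1 to 5. In old mice Il10 was at 0.418, 1.58, 0.846, 0 and 2.44 CPM in macrophages and 2.32, 0, 0, 0.790 and 0.572 CPM in monocytes. Kcnn3, a calcium-activated potassium channel, was at 90.4, 67.2, 119, 89.4 and 151 CPM in macrophage libraries 1 to 5 and 0, 0, 0.579, 0 and 0 CPM in monocyte libraries 1 to 5. Ahr, the aryl hydrocarbon receptor, fell by 3.29 ± 0.25 (16.2 ± 2.15 against 161 ± 62.9 CPM). Fgf13, whose change differed between the ages, was at 0.988, 5.82, 4.78, 5.52 and 2.43 CPM in macrophage libraries 1 to 5 and 0, 0, 0, 0 and 0 CPM in monocyte libraries 1 to 5 in young mice. In old mice it was at 1.57, 1.24, 1.22, 0.529 and 0.917 CPM in macrophage libraries 1 to 5 and 1.16, 0, 0.233, 2.37 and 1.86 CPM in monocyte libraries 1 to 5.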
